A study of Mus musculus with 6 samples.

Results

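The genes described here encode 3 systems of guidance cues and their receptors: ephrins and Eph receptors, Slits and Robo receptors, and netrins with the receptors Dcc, neogenin and Unc5. They were chosen by symbol from the deposited mRNA table, as every Epha, Ephb, Efna, Efnb, Slit, Robo, Ntn and Unc5 gene together with Dcc and Neo1. The rule found 39 of the 22298 genes in the table, of which 28 had enough counts to be tested. By role they were 5 ephrin-A and 3 ephrin-B ligands, 9 EphA and 5 EphB receptors, 3 Slits, 4 Robo receptors, 4 netrins and 6 netrin receptors.

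Eph receptors are receptor tyrosine kinases that are activated by ephrins on the surface of a neighbouring cell. Ephrin-A ligands are held in the membrane by a lipid anchor, while ephrin-B ligands span it and can signal back into the cell that carries them. Slits are large secreted proteins that act through Robo receptors, and netrins are secreted, laminin-related proteins that attract through Dcc and neogenin (Neo1) or repel through the Unc5 receptors. All 3 systems are best known for steering axons, and they also set cell adhesion, cell sorting and vessel growth outside the nervous system.

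RNA was sequenced from GC-1spg cells, immortalised mouse cells that serve as a model of type B spermatogonia. The si-METTL3 group held 3 libraries of cells transfected with an siRNA against Mettl3, which encodes the catalytic subunit of the complex that adds N6-methyladenosine (m6A) to mRNA. The si-NC group held 3 libraries that the labels' protocol describes as given a control siRNA. All cells were of this immortalised line and grew in DMEM with 10% FBS. Per that protocol they were transfected at 60% density and harvested after 48 h, and no sample is titled as untransfected. The labels tag the si-NC cells as untreated and print for the control siRNA the same 19 bases as for the siRNA against Mettl3 (chromosome 14). The control's own sequence is therefore not known here. These bases were not aligned to Mettl3. The printed sequence is shown because its capitals mark the bases that pair with positions 2 to 8 of the guide strand, which serve below to look for matches in the guidance genes.
siRNA as the labels print it, sense strand: gctaccgtatgGGACATTa

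Total mRNA-table counts were 31469144, 22146057 and 24714683 in the si-METTL3 libraries, and 35701752, 29679593 and 37698956 in the si-NC libraries. Levels below are CPM, counts scaled to library size by edgeR with TMM, unless FPKM is named. The labels do not say that the replicates came from separate cultures, so p-values measure the spread between these libraries, which may be technical. Mettl3 averaged 5.31 ± 0.785 CPM in si-METTL3 and 18.3 ± 0.974 CPM in si-NC (SD, n = 3 each), a log2 fold change of -1.79 with an SE of 0.14 (edgeR adjusted p = 0.000579). Of the listed spermatogonial and germ-line markers, 5 of 20 (Nanos2, Rhox13, Sall4, Sohlh1 and Tex101) were at 0 counts in every library and Ddx4 had 1 to 7 counts, while Uchl1 (35.1 to 40.4 CPM in si-METTL3 libraries, 35.1 to 41.3 CPM in si-NC libraries) made up most of the list's sum, so the labelled cell type had little marker RNA beyond Uchl1. Lung epithelial markers (16 genes) summed to 114, 113 and 78.0 CPM in si-METTL3 libraries 1 to 3, and to 11.9, 10.3 and 79.1 CPM in si-NC libraries 1 to 3. Red blood cell markers followed the same split, at 12.5 to 18.9 CPM in si-METTL3 libraries and at 0.627, 0.862 and 12.2 CPM in si-NC libraries 1 to 3, as did macrophage and white blood cell markers, at 21.01 to 28.2 CPM in si-METTL3 libraries and at 4.85, 5.11 and 19.2 CPM in si-NC libraries 1 to 3. Sertoli and Leydig markers (11 genes) summed to 411, 449 and 433 CPM in si-METTL3 libraries, against 294, 263 and 297 CPM in si-NC libraries, mostly Wt1 and Clu. Cyp17a1, Fshr, Hsd3b1 and Insl3 were at 0 in every library. Gata4 ran the other way, at 28.9 to 32.5 CPM in si-METTL3 and 37.2 to 43.8 CPM in si-NC. Amh and Star were also lower in si-METTL3. Of the 6 tested genes of the list, edgeR called 2 higher and 1 lower (8.67% and 10.2% of all tested genes). Fibroblast markers (9 genes) summed to 2269.8 to 2313 CPM in si-METTL3 libraries and 1985 to 2212 CPM in si-NC libraries, mostly Col1a1, whose own ranges overlapped. Pdgfra was at 67.2 to 73.5 CPM in si-METTL3 and 38.3 to 41.9 CPM in si-NC. Col3a1 ran the other way, at 15.7 to 16.8 CPM in si-METTL3 and 27.0 to 30.6 CPM in si-NC. Of the 8 tested genes of this list, 3 were called higher and 1 lower. Neural markers (16 genes) summed to 106, 112 and 113 CPM in si-METTL3 libraries, against 82.0, 101 and 89.7 CPM in si-NC libraries. Camk2a, Snap25 and Syp, among others, had 0 counts in si-NC library 1. In si-NC library 2 they had 83, 41 and 57 counts. Mbp, the most abundant of this list, was instead highest in si-NC library 1, at 65.7 CPM. The part of these marker differences in the guidance genes' changes was not tested. None of the genes in the lung, red blood cell and macrophage lists was at 0 in every library. With regard to these 3 lists si-NC library 3 therefore resembled the si-METTL3 libraries and not the other si-NC libraries. Counts of calls are also given without it. In that fit 14 lung, 4 red blood cell and 2 macrophage markers were called, against 0 in each list with all libraries. Leaving it out thus does not remove the marker difference between the groups.

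With Mettl3 lowered, RNA of the guidance genes was higher more often than lower. Of the 28 tested genes, 11 passed an edgeR adjusted p under 0.05 (39.3%, against 18.9% of all 13082 tested genes). The 9 that rose were the ephrins Efnb1, Efnb2 and Efna4, the Eph receptors Epha4 and Ephb6, Slit3, Robo1, the netrin Ntn4 and the netrin receptor Unc5b, which is 32.1% of the tested members against 8.67% of all genes. The 2 that fell were the ephrin Efnb3 and the receptor Epha2, 7.14% against 10.2%. The largest changes among the 11 were in Efnb3, 3.01-fold lower, and Unc5b, 2.77-fold higher, and the other 9 changed by a factor of 1.27 to 1.61. The median log2 fold change of the 28 was 0.28, against 0.030 over all tested genes, and 23 of the 28 (82.1%) were positive against 53.05% of all genes. In 20 of the 28 genes (71.4%) the CPM ranges of the groups did not overlap, 17 higher and 3 lower in si-METTL3, where 41.5% of all tested genes had ranges apart, 20.2% higher and 21.3% lower. Slit1 and Robo4, among the 17 and the 23, passed the filter on low counts only through the si-METTL3 group; without them 21 of 26 were positive, with a median of 0.25. In bulk RNA, fewer cells that express a gene and less RNA per cell cannot be told apart.

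These counts depended on single libraries. Leaving out si-NC library 2 gave 11 guidance genes higher and 2 lower (17.9% and 18.9% of all genes), with Slit1 (edgeR adjusted p = 0.0264) and Unc5c (0.0346) added, of which Slit1 was in the test only through its si-METTL3 counts. Leaving out si-NC library 3 gave 6 higher and 1 lower (6.17% and 6.08% of all genes), and leaving out si-METTL3 library 1 gave 4 higher and 1 lower (4.12% and 6.13%). Leaving out si-NC library 1 (2.74% and 2.91% of all genes), si-METTL3 library 2 (2.44% and 2.72%) or si-METTL3 library 3 (2.36% and 2.63%) each gave 1 guidance gene higher and 1 lower. The share of all genes called thus moved with the library left out too. Efnb3 was the gene that passed in all 6 of these fits, with a highest adjusted p of 0.0395. All 11 genes kept their sign in the 6 fits. Their CPM groups did not overlap, so leaving out 1 library could hardly turn a sign, and this is no separate support.

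**Figure D1:**
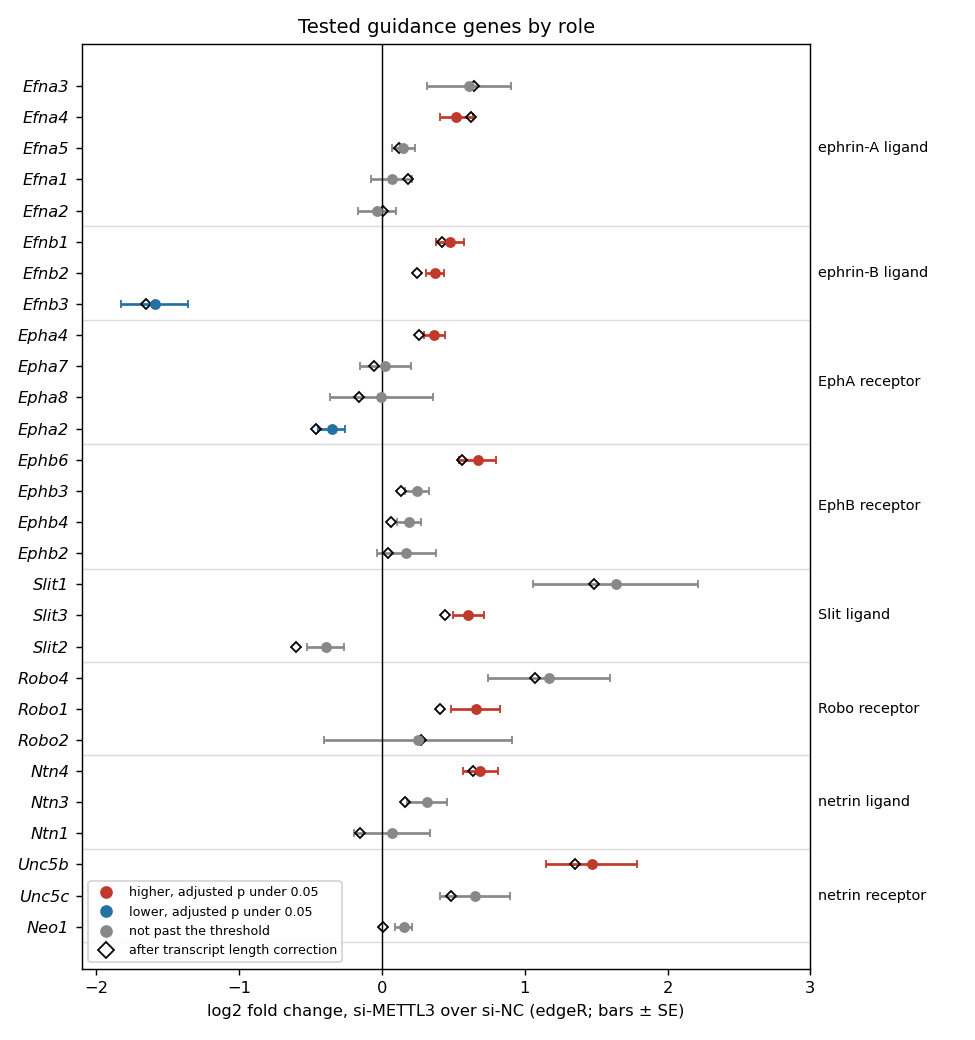
Log2 fold change of each of the 28 tested guidance genes, si-METTL3 over si-NC (x axis, edgeR, bars ± SE), grouped by role down the page, with open diamonds for the value after the length correction. Of the values without it, 23 lie right of 0 and 5 left of it, and Efnb3 at -1.59 lies farthest to the left.

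Transcript length moved with the fold changes and was measured beside them. The median transcript length implied by the deposited counts and FPKM was 4659 bp for the 28 tested guidance genes (1799 to 8860 bp), against 3045 bp over all tested genes. Across all tested genes cut into 12 bins by length, the shortest bin had a median log2 fold change of -0.18, with 2.11% of its genes called higher and 17.7% lower, and the longest a median of 0.27, with 15.9% called higher and 4.03% lower. In the bin from 4452 to 5247 bp, which holds the members' median length, the median was 0.17 and 13.1% were called higher. Per doubling of length, log2 CPM relative to the gene's mean moved by -0.117, 0.024 and -0.141 in si-NC libraries 1 to 3. The slopes were 0.044, 0.084 and 0.106 in si-METTL3 libraries 1 to 3, so si-NC library 2 had the sign of the si-METTL3 libraries. When each library was corrected for its own trend on length, 8 guidance genes were called higher and 3 lower (7.74% and 8.97% of all genes), and their median was 0.21 against 0.035 over all genes. A correction for length and GC content together, chosen after the data were seen, gave the same counts (10.3% and 13.3% of all genes) and a median of 0.20 against -0.019 over all genes. The correction for length ended the call of Robo1 and added Slit2 as lower, both described below.

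**Figure D2:**
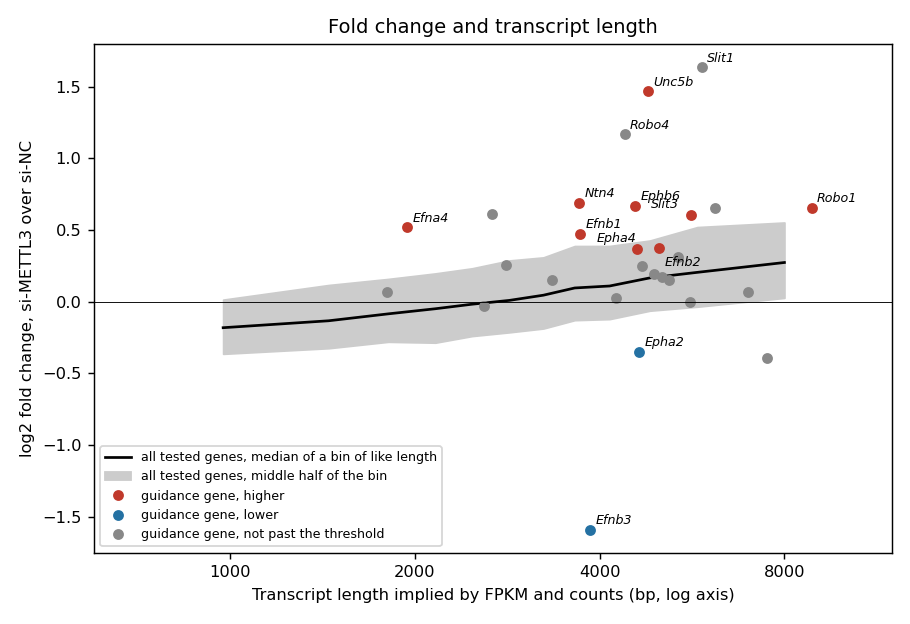
Log2 fold change, si-METTL3 over si-NC (y axis), against the transcript length implied by FPKM and counts (x axis, bp, log axis), with the guidance genes drawn over the median and quartiles of all tested genes in length bins. The median of all genes runs between -0.18 in the shortest bin and 0.27 in the longest, and most guidance genes lie on the long side.

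Levels differed widely between members, and FPKM, which is scaled to transcript length, was used to set them in order. Epha2 was the most abundant in both groups, at 136 ± 9.14 FPKM in si-METTL3 and 171 ± 16.1 FPKM in si-NC (SD, n = 3 each), above 98.2% of the genes in the table. Efnb2 came next at 62.0 ± 8.29 FPKM in si-METTL3 and 45.1 ± 1.68 FPKM in si-NC. Both stood apart from the gene below them, since all 6 libraries of Epha2 lay above all 6 of Efnb2, and those of Efnb2 above those of Epha4. Epha4, Neo1, Efna5 and Ephb3 followed with mean FPKM over all libraries of 34.7, 32.8, 29.0 and 23.8, and each neighbouring pair among these 4 overlapped. Ephb3 lay above Ephb4 (17.5 FPKM) in every library with no overlap of ranges, while Ephb4, Efna1 (14.7 FPKM) and Efnb1 (13.3 FPKM) overlapped each with the next. Unc5b, Slit3, Slit2, Efna4, Ephb6, Efna2, Ntn4 and Epha7 lay between 1.90 and 5.87 FPKM, each overlapping its neighbour. After the gap below Epha7, the other tested members had means over all libraries under 1 FPKM. Efnb3, the next gene, averaged 1.43 FPKM in si-NC and 0.477 FPKM in si-METTL3. Among the 39 genes Efnb3 ranked 23rd in si-METTL3, against 18th in si-NC.

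**Figure D3:**
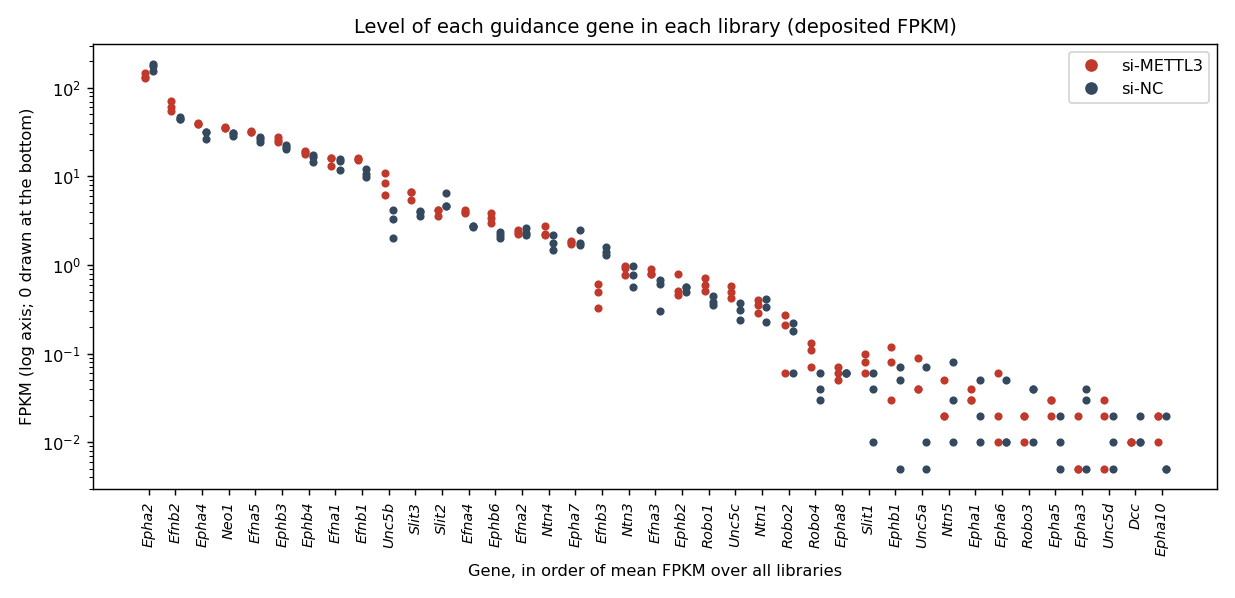
Deposited FPKM of each guidance gene in each library (y axis, log axis, zeros drawn at the bottom), with genes ordered along the x axis by mean FPKM over all libraries. Epha2 and Efnb2 stand apart at the top, and 11 untested genes lie at 0.12 FPKM or less.

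The 11 untested members were Dcc, Epha1, Epha3, Epha5, Epha6, Epha10, Ephb1, Ntn5, Robo3, Unc5a and Unc5d. They had 0 to 9 counts in each library, and none was at 0 in all 6. At this depth no difference could be shown for them. Dcc, the best known netrin receptor, was among them with 2 to 4 counts per si-METTL3 library and 3 or 4 per si-NC library. For Slit1 and Robo4 all 3 si-METTL3 libraries reached the filter's 0.327 CPM while no si-NC library did, so they belong with the tested genes only by being higher there.

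Positions of genes below are those of GENCODE M21 on GRCm38. Of the ephrin-B ligands 2 rose and 1 fell, Efnb3 by the largest fold among the genes that passed. Efnb1 (ENSMUSG00000031217, chrX:99136130-99148991, plus strand) had 58.1, 58.6 and 54.0 CPM in si-METTL3 libraries, against 42.8, 36.0 and 43.9 CPM in si-NC libraries. The groups did not overlap, and the log2 fold change was 0.48 with an SE of 0.10 (edgeR adjusted p = 0.0202, 1084 to 1858 counts per library). Efnb2 (ENSMUSG00000001300, chr8:8617434-8661242, minus strand), which marks arteries and is the usual partner of Ephb4, had 299, 283 and 305 CPM in si-METTL3 libraries, against 233, 230.2 and 222 CPM in si-NC libraries. All si-METTL3 libraries were higher, with a log2 fold change of 0.37 and an SE of 0.06 (edgeR adjusted p = 0.0104, 6358 to 9558 counts), and 0.24 after the length correction (0.0439). Efnb3 (ENSMUSG00000003934, chr11:69554092-69560205, minus strand), an ephrin known from the midline of the spinal cord, ran the other way, with 2.32, 1.87 and 1.30 CPM in si-METTL3 libraries, against 4.99, 5.44 and 6.21 CPM in si-NC libraries. Its counts were 74, 42 and 32 in si-METTL3 libraries, and 175, 164 and 228 in si-NC libraries. The log2 fold change was -1.59 with an SE of 0.23 (edgeR adjusted p = 0.00662), and it was -1.65 after the length correction. The summed FPKM of the 3 genes was 70.55, 87.5 and 76.6 in si-METTL3 libraries, against 56.1, 58.2 and 57.8 in si-NC libraries, of which Efnb2 held 76.3% to 81.0%. Efnb1 lost its call without si-NC library 1 or without any of the si-METTL3 libraries (adjusted p 0.0641 to 0.0877), and Efnb2 without si-NC library 1 (0.0540) or si-METTL3 library 3 (0.0614).

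Of the ephrin-A ligands, Efna4 (ENSMUSG00000028040, chr3:89333390-89338028, minus strand) rose. It had 7.88, 7.40 and 7.79 CPM in si-METTL3 libraries, against 5.44, 5.11 and 5.53 CPM in si-NC libraries. The replicates lay close together in both groups, and the log2 fold change was 0.52 with an SE of 0.11 (edgeR adjusted p = 0.0232, 154 to 252 counts). It passed in the fit without si-NC library 2 and in none of the other 5 that left out a library (adjusted p up to 0.0901). Efna5, a graded cue of the visual map and the most abundant ephrin-A per length, had 103, 94.6 and 107 CPM in si-METTL3 libraries, against 95.7, 93.6 and 85.7 CPM in si-NC libraries. These ranges overlapped, and the log2 fold change was 0.15 with an SE of 0.08 (edgeR adjusted p = 0.23), while on the FPKM scale it was 0.26 in log2(FPKM + 1) and passed (limma adjusted p = 0.0432). Efna1, a high-affinity ligand of Epha2, had 28.2, 29.1 and 23.8 CPM in si-METTL3 libraries, against 28.6, 21.2 and 27.6 CPM in si-NC libraries, with a log2 fold change of 0.068 and an SE of 0.14 (edgeR adjusted p = 0.76). For Efna3 the log2 fold change was 0.61 (edgeR adjusted p = 0.183), with no overlap between 1.87 to 2.39 CPM in si-METTL3 and 0.884 to 1.69 CPM in si-NC, and for Efna2 it was -0.033. Efna1, Efna3 and Efna4 are neighbours on chromosome 3 (GRCm38 89271733 to 89338028), so the called gene of this cluster lies beside 2 that did not pass.

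Among EphA receptors the most abundant member fell and the next rose. Epha2 (ENSMUSG00000006445, chr4:141301240-141329384, plus strand), an epithelial Eph receptor, had 666, 616 and 603 CPM in si-METTL3 libraries, against 869, 702 and 831 CPM in si-NC libraries. All si-METTL3 libraries were lower, with a log2 fold change of -0.35 and an SE of 0.09 (edgeR adjusted p = 0.0423, 13832 to 30508 counts). Epha4 (ENSMUSG00000026235, chr1:77367185-77515088, minus strand), which binds ephrins of both classes, had 176, 179 and 185 CPM in si-METTL3 libraries, against 145, 145 and 128 CPM in si-NC libraries. It was higher in all si-METTL3 libraries, by 0.37 on the log2 scale with an SE of 0.08 (edgeR adjusted p = 0.0192, 4007 to 5623 counts). Epha2 held 78.1%, 76.2% and 75.5% of the summed EphA FPKM in si-METTL3 libraries, against 84.5%, 81.8% and 86.1% in si-NC libraries, and the sums themselves, 171.5 to 188 FPKM in si-METTL3 and 187 to 218 FPKM in si-NC, overlapped by a narrow margin. Epha7 had a log2 fold change of 0.025 with an SE of 0.18, and Epha8, at 8 to 12 counts per library, one of -0.004 with an SE of 0.36. Epha2 and Epha4 passed in the fit without si-NC library 2 and in no other fit that left out a library, with adjusted p up to 0.153 for Epha2 and 0.0884 for Epha4. After the length correction Epha2 was at -0.46 (edgeR adjusted p = 0.0347) and Epha4 at 0.26 (0.0386).

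All 4 tested EphB receptors had positive fold changes, and Ephb6 passed the test. Ephb6 (ENSMUSG00000029869, chr6:41605482-41620509, plus strand), whose kinase domain is inactive, had 13.2, 17.5 and 15.6 CPM in si-METTL3 libraries, against 9.69, 9.15 and 10.2 CPM in si-NC libraries. The log2 fold change was 0.67 with an SE of 0.13 (edgeR adjusted p = 0.016, 276 to 421 counts), and it did not pass without si-NC library 1 or si-METTL3 libraries 2 or 3 (0.0668 to 0.0697). Ephb3 had 128, 121 and 115 CPM in si-METTL3 libraries, against 108, 93.1 and 104 CPM in si-NC libraries, with a log2 fold change of 0.25 and an SE of 0.08 (edgeR adjusted p = 0.0791). Ephb4, a receptor of veins, had 94.7, 91.8 and 88.5 CPM in si-METTL3 libraries, against 81.6, 72.6 and 86.4 CPM in si-NC libraries, with a log2 fold change of 0.19 and an SE of 0.08 (edgeR adjusted p = 0.15). Both had no overlap between groups and both missed the threshold, and the length correction brought them to 0.13 and 0.06. Ephb2 was at 0.17 with an SE of 0.21.

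The Slit ligands differed among themselves. Slit3 (ENSMUSG00000056427, chr11:35121224-35708507, plus strand) had 29.8, 38.5 and 34.8 CPM in si-METTL3 libraries, against 22.4, 22.3 and 23.0 CPM in si-NC libraries. It rose by 0.61 on the log2 scale with an SE of 0.11 (edgeR adjusted p = 0.0133, 673 to 954 counts), and by 0.44 after the length correction (0.0344). Slit2 (ENSMUSG00000031558, chr5:47983138-48307733, plus strand) had 30.5, 26.3 and 32.9 CPM in si-METTL3 libraries, against 35.6, 45.2 and 37.0 CPM in si-NC libraries, and its log2 fold change of -0.39 with an SE of 0.13 missed the threshold (edgeR adjusted p = 0.0757). Its ranges did not overlap, and after the length correction it was called lower at -0.60 (0.0143). Per length, Slit3 was the leading Slit in every si-METTL3 library, with 55.9%, 64.5% and 61.1% of the summed Slit FPKM, and Slit2 the leading one in every si-NC library, with 54.1%, 61.3% and 55.9%. Slit1 had 17, 13 and 10 counts in si-METTL3 libraries, against 2, 9 and 5 counts in si-NC libraries, and a log2 fold change of 1.64 with an SE of 0.58 (edgeR adjusted p = 0.0891). The Slit3 call did not hold without si-NC library 1 or si-METTL3 libraries 2 or 3 (0.0584 to 0.0634).

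Robo receptors were scarce, with a summed FPKM of 0.86 to 0.99 in si-METTL3 libraries and 0.54 to 0.71 in si-NC libraries. Robo1 (ENSMUSG00000022883, chr16:72308306-73046095, plus strand), the broadly expressed Slit receptor, led by FPKM in every library and had 5.29, 4.55 and 6.25 CPM in si-METTL3 libraries, against 3.22, 3.78 and 3.21 CPM in si-NC libraries. Its log2 fold change was 0.66 with an SE of 0.17 (edgeR adjusted p = 0.0383, 102 to 169 counts). The call ended after the length correction (0.41, adjusted p = 0.123), on the FPKM scale (limma adjusted p = 0.0972) and in 5 of the 6 fits with a library removed, the exception being si-NC library 2. Robo4, an endothelial member, had 16, 12 and 9 counts in si-METTL3 libraries, against 10, 5 and 6 counts in si-NC libraries, with a log2 fold change of 1.17 and an SE of 0.43 (edgeR adjusted p = 0.0983). Beside it, the listed endothelial markers (14 genes) together gave 116, 124 and 121 CPM in si-METTL3 libraries, against 83.9, 80.3 and 91.2 CPM in si-NC libraries. Flt1 gave 84.7 to 94.8 CPM of it in si-METTL3 and 63.1 to 67.4 CPM in si-NC, and none of the 14 was at 0 in every library. Kdr overlapped between the groups, at 10.5 to 11.1 CPM in si-METTL3 and 9.75 to 11.0 CPM in si-NC, and Egfl7 was highest in si-NC library 3, at 1.61 CPM. Of the 11 tested endothelial markers, edgeR called 1 higher and 0 lower (8.67% and 10.2% of all tested genes). Cdh5 had 2.97, 2.85 and 1.78 CPM in si-METTL3 libraries, against 0.114, 0.133 and 1.96 CPM in si-NC libraries 1 to 3. The part of other cell types in the Robo4 counts, or in those of Unc5b described below, was not tested. Robo2, at 5 to 26 counts, had a log2 fold change of 0.25 with an SE of 0.66.

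Of the netrins, Ntn4 (ENSMUSG00000020019, chr10:93640681-93747207, plus strand), a netrin of basement membranes, rose. It had 9.98, 9.89 and 9.65 CPM in si-METTL3 libraries, against 5.47, 6.80 and 6.05 CPM in si-NC libraries. The log2 fold change was 0.69 with an SE of 0.12 (edgeR adjusted p = 0.0125, 192 to 319 counts), and 0.64 after the length correction. On the FPKM scale the difference was smaller and did not pass, at 0.27 in log2(FPKM + 1) (limma adjusted p = 0.182), and the transcript length implied for Ntn4 was 3727, 4455 and 4458 bp in si-METTL3 libraries, against 3683, 3154 and 3308 bp in si-NC libraries. The length that the deposited FPKM were scaled by thus differed between the groups for this gene. The call also ended without si-NC library 1 or si-METTL3 libraries 2 or 3 (adjusted p 0.0542 to 0.0599). Ntn3 had a log2 fold change of 0.31 (edgeR adjusted p = 0.157) and shares 1715 bp of its length with Tbc1d24 on the same strand, so reads there cannot be assigned with certainty. Ntn1, the best studied netrin, had 50 to 77 counts in si-METTL3 libraries and 48 to 106 counts in si-NC libraries, with a log2 fold change of 0.070 and an SE of 0.27.

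Unc5b (ENSMUSG00000020099, chr10:60762593-60831581, minus strand), a repulsive netrin receptor also known from blood vessels, had the largest rise among the genes that passed. It had 40.9, 55.8 and 29.2 CPM in si-METTL3 libraries, against 20.5, 15.3 and 9.73 CPM in si-NC libraries. The groups did not overlap although both spread widely, and the means were 42.0 ± 13.3 CPM in si-METTL3 and 15.2 ± 5.39 CPM in si-NC (SD, n = 3 each). The log2 fold change was 1.47 with an SE of 0.32 (edgeR adjusted p = 0.0224, 357 to 1307 counts), 1.35 after the length correction (0.0315) and 1.20 without si-NC library 3 (0.0466). It did not pass without si-METTL3 library 1 (0.0585) or 2 (0.0838). Neo1 (ENSMUSG00000032340, chr9:58874687-59036441, minus strand), encoding neogenin, which also binds repulsive guidance molecules, had 176, 178 and 183 CPM in si-METTL3 libraries, against 166, 159 and 159 CPM in si-NC libraries. Its groups lay apart by a narrow margin, and its log2 fold change of 0.15 with an SE of 0.06 did not pass (edgeR adjusted p = 0.121). It passed on the FPKM scale at 0.23 in log2(FPKM + 1) (limma adjusted p = 0.0445), and was at 0.010 after the length correction (edgeR adjusted p = 0.929). Neo1 made up 79.5%, 74.9% and 84.5% of the summed FPKM of netrin receptors in si-METTL3 libraries, against 87.2%, 89.0% and 92.6% in si-NC libraries. Unc5c had a log2 fold change of 0.65 with an SE of 0.25 (edgeR adjusted p = 0.108).

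**Figure D4:**
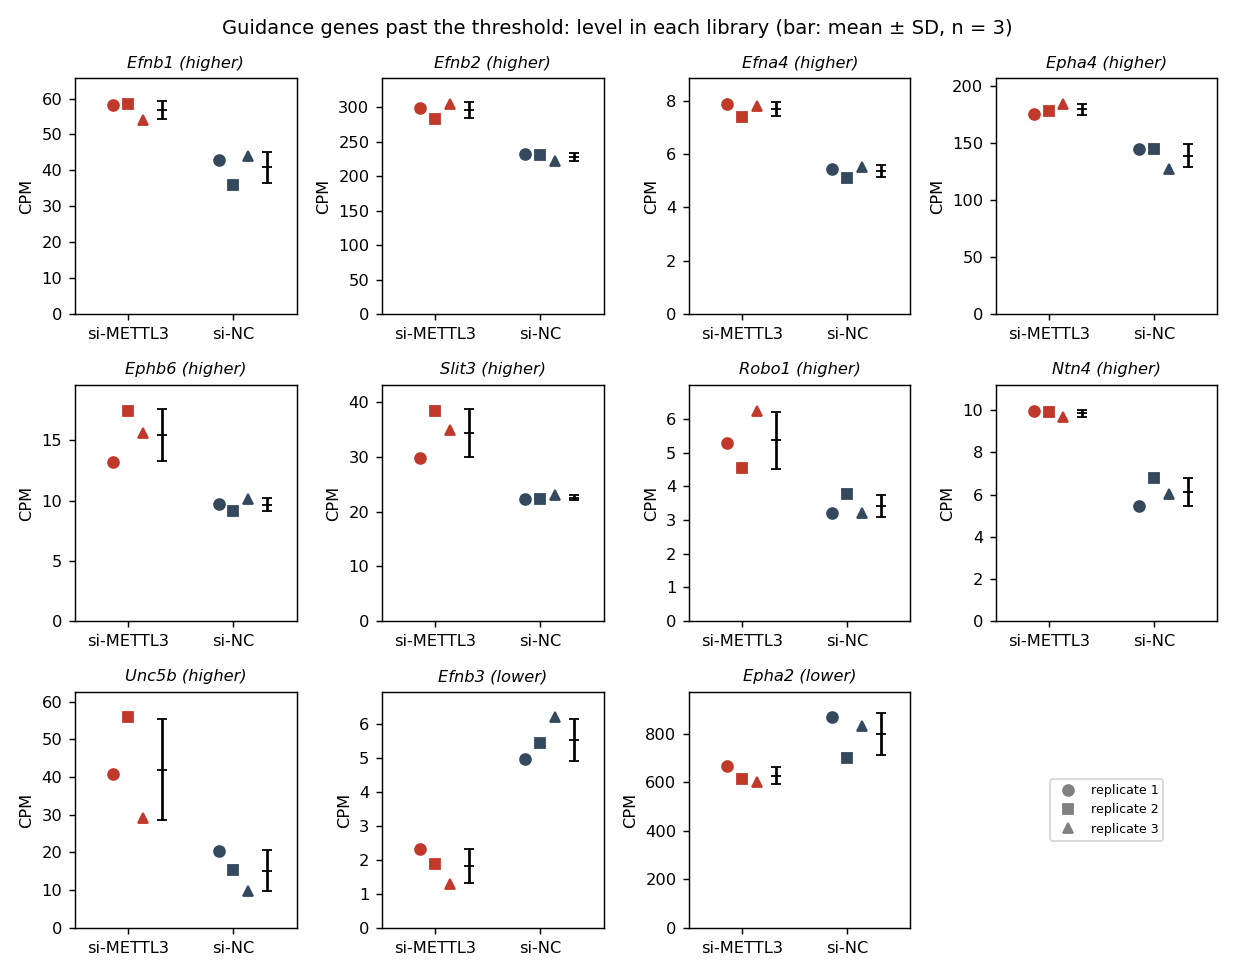
CPM of the 11 guidance genes past the threshold in each library (points), with si-METTL3 left of si-NC in each panel and bars for the mean ± SD (n = 3). In every panel the groups do not overlap, and Efnb3 and Epha2 are the panels in which si-METTL3 is lower.

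**Figure D5:**
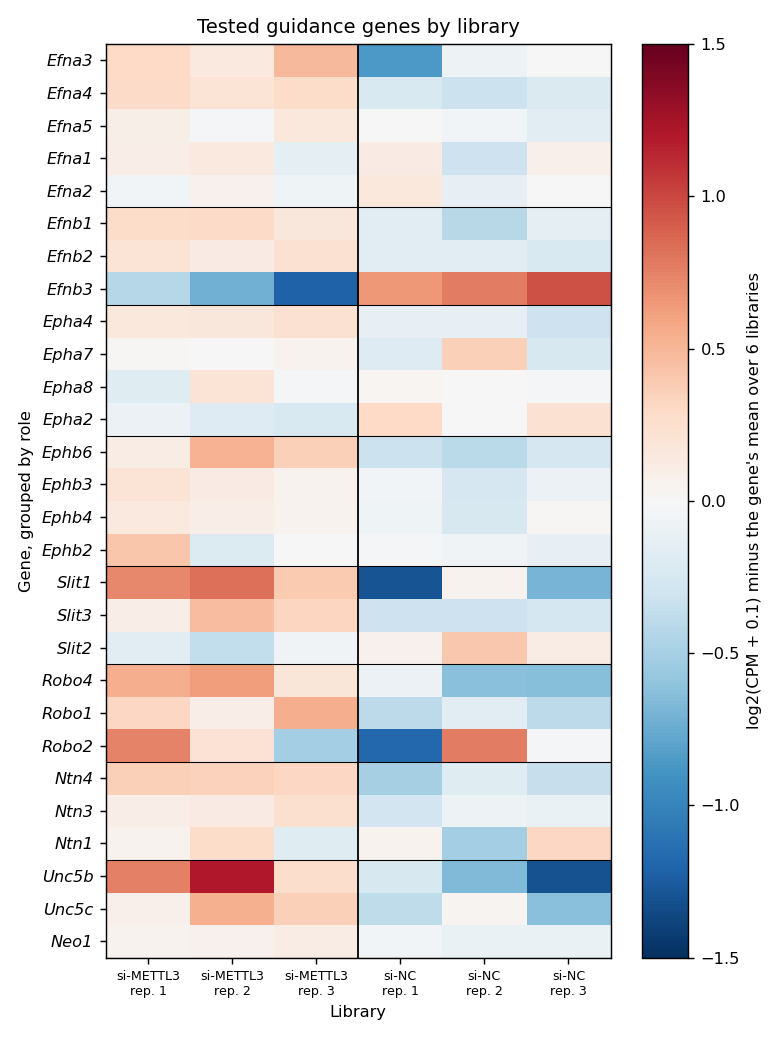
Log2(CPM + 0.1) of the 28 tested guidance genes in each library minus the gene's mean over the 6 libraries (colour), with genes grouped by role down the page and si-METTL3 libraries left of si-NC libraries. Efnb3 stands out with low values in si-METTL3, and Unc5b with high ones.

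The promoters of 34 of the 39 genes were found in the RefSeq table (GRCm38.p6, 250 bases before to 50 after the start). Those of Epha2 and Efnb2, the most abundant members, and of Unc5b, which had the largest rise among the called genes, are shown with capitals on every match to a motif searched for, on either strand. The motifs were the GC box (GGGCGG), the TEAD motif (GGAATG), the cAMP response element (TGACGTCA), AP-1 (TGANTCA), the interferon-stimulated response element and the ATF4 composite motif (TGATGNAA). Epha2 on the plus strand of chr4:141300971-141301270 holds 2 TEAD motifs, 1 GC box and 1 cAMP response element. Efnb2 on the minus strand of chr8:8661193-8661492 holds 3 GC boxes and 1 TEAD motif, and Unc5b on the minus strand of chr10:60831532-60831831 holds 3 GC boxes.
Epha2: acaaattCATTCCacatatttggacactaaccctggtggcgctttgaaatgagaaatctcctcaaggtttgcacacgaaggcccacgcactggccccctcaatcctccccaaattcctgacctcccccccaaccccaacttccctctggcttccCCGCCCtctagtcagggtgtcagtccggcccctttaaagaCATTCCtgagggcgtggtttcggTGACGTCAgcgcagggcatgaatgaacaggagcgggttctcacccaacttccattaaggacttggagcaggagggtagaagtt
Efnb2: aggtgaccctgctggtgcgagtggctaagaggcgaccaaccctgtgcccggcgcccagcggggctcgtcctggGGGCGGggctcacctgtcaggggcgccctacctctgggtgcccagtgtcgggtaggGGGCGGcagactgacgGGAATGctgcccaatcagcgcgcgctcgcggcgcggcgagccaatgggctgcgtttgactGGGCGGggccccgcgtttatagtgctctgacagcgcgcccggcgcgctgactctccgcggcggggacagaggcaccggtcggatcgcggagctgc
Unc5b: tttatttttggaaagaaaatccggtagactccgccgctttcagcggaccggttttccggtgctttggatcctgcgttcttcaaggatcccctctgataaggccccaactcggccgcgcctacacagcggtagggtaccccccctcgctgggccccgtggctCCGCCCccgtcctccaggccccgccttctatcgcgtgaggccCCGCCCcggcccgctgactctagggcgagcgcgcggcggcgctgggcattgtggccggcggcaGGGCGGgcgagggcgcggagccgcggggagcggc

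A GC box was present in 24 of the 34 promoters (70.6%), against 38.2% of all 27025 genes with a RefSeq promoter, tested here or not. The median number of CpG dinucleotides was 22 against 8 over that same set. The TEAD motif was in 6 of 34 (17.6%, against 16.6%) and the cAMP response element in 1 (2.94%, against 2.03%). No match to the other 3 motifs lay in these windows, which 3.99% to 8.97% of all genes hold. In the coding sequence and 3′ UTR, GGACT, a common form of the sequence at which the METTL3 complex methylates adenosine, occurred at a median of 1.79 per kb in the 28 tested members (0.620 to 2.70), against 1.04 over all tested genes. The members were also richer in GC, with a median of 56.6% against 50.4%, and the part of base composition in this was not tested. No methylation was measured. The complement of guide bases 2 to 8 was in the 3′ UTR of 3 of the 28 (10.7%: Epha2, Ephb6 and Robo2), against 9.56% of all tested genes with a coding transcript, and no member shared a run of more than 10 bases with the printed siRNA.

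Partners of these receptors inside and at the surface of the cell were called higher more often than lower. Their list was chosen with earlier results of these data known, so these calls are no separate support for the result on the guidance genes. The list held 90 genes found in the table, of which 83 were tested, and 12 (14.5%) were called higher and 2 (2.41%) lower, against 8.67% and 10.2% of all genes. Their median log2 fold change was 0.23, against 0.030 over all tested genes. After the length correction it was 0.10, against 0.035 over all genes. With that correction 9 partners were called higher and 2 lower, where 7.74% and 8.97% of all genes were called. Of the 48 adaptors, kinases and GTPase regulators 8 rose (16.7%) and 1 fell (2.08%). Of the 26 tested surface and secreted partners 3 rose (11.5%), and of the 9 tested genes for the fate of receptors 1 rose and 1 fell (11.1% each). The shares called higher in the last 2 lists lay near the 8.67% of all genes. Nck2, an adaptor that links Eph and ephrin-B phosphotyrosines to actin, averaged 76.1 ± 3.25 CPM in si-METTL3 and 44.6 ± 4.91 CPM in si-NC, with a log2 fold change of 0.77 and an SE of 0.10 (edgeR adjusted p = 0.00408). Kalrn, a signalling protein downstream of EphB receptors, averaged 51.4 ± 6.11 CPM in si-METTL3 and 30.9 ± 0.720 CPM in si-NC (0.74, edgeR adjusted p = 0.00595). Srgap2, of a family whose members bind Robo receptors, averaged 101.01 ± 6.18 CPM in si-METTL3 and 64.7 ± 4.20 CPM in si-NC (0.64, edgeR adjusted p = 0.00425). These 3 passed whichever library was removed. Flrt1, of a family whose members bind Unc5 receptors, rose by 0.73 (edgeR adjusted p = 0.0105), and was at 0.51 and no longer past the threshold after the length correction (0.0604). Ngef, the Eph-regulated exchange factor ephexin, rose by 0.68 (edgeR adjusted p = 0.0109). Of the 2 that fell, Ptpn11, the phosphatase Shp2, averaged 268 ± 9.41 CPM in si-METTL3 and 356 ± 22.9 CPM in si-NC (-0.41, edgeR adjusted p = 0.0120), and Siah1b, a ubiquitin ligase, 23.1 ± 1.78 CPM in si-METTL3 and 31.8 ± 2.30 CPM in si-NC (-0.46, edgeR adjusted p = 0.0229).

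The separate lncRNA table, tested apart, listed 29 transcripts that the annotation assigns to 15 of the guidance genes as noncoding products. Of these, 10 were at 0 in every library and 7 were tested, with none called by edgeR and 2 at an unadjusted p under 0.05. Over all its tested transcripts 0.733% were called. The Unc5b transcript ENSMUST00000218316 had 86, 126 and 128 counts in si-METTL3 libraries, against 85, 51 and 51 counts in si-NC libraries, with a log2 fold change of 1.19 and an SE of 0.34 (edgeR adjusted p = 0.171). For the Epha2 transcript ENSMUST00000145523 there were 15, 16 and 20 counts in si-METTL3 libraries, against 38, 32 and 42 counts in si-NC libraries, with a log2 fold change of -0.82 (edgeR adjusted p = 0.301). Both were picked after their values were seen. DESeq2 was not run on that table. These transcripts share sequence with the mRNA of the same gene, so the 2 tables are not separate measurements.

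The authors' deposited table lists 11 of the 39 genes at an adjusted p under 0.05, and they were the 11 called here. Its log2 fold changes for Efnb3 and Unc5b are -1.58 and 1.43, and the adjusted p it gives for Slit2 is 0.0590. How the authors' counting divided reads between similar family members, and whether it used strand, could not be read from the labels or files. Genes with an antisense transcript over part of their length in the annotation, Efna3, Efna4, Epha7, Slit2, Ntn3, Ntn4, Neo1 and Unc5c among the tested members, are therefore less certain.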

How the data were processed

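Total RNA of 6 GC-1spg libraries was analysed, grouped and numbered by sample title as si-METTL3 1 to 3 and si-NC 1 to 3. Per the file headers, the authors deposited an mRNA table and a lncRNA table with whole-number counts and FPKM per library, the FPKM scaled to transcript length and library total. The authors also deposited log2 fold changes, p-values and adjusted p-values from a test not given in the sources used here. The submitters' processing notes name build mm9 and the tools RSEM, StringTie, Bowtie2 and fastp, without versions or roles. If RSEM made the counts, they are rounded estimates.

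The test on counts was that of edgeR 4.0.16 (R 4.3.3), using TMM, filterByExpr, a quasi-likelihood fit of the group alone and Benjamini-Hochberg adjustment over all 13082 tested genes at 0.05. SE is the log2 fold change over the root of the F statistic. The test was tried on simulated data with known changes. Alternatives were DESeq2 1.42.0 and its size factors, other filters, limma 3.58.1 on log2(FPKM + 1) and log2(FPKM + 0.1), corrections by loess for length and GC content, a replicate block, and each library left out. Transcript length was implied by counts and FPKM. Names, positions and UTRs came from GENCODE M21 (GRCm38) and promoters from RefSeq (GRCm38.p6), and no coordinate was converted.

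Members were chosen by symbol. The genes with values in every library were those past the threshold or among the 8 most abundant per length in either group, and of the partners up to 5 called genes each way with the largest fold change. Slit1, Slit2 and Robo4 were added to these after their values were seen. These are given as CPM per library with the range of counts, and FPKM where levels are ordered. Members and lists were chosen with earlier results of these data known.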

Additional observations from a re-analysis of the deposited data

How the results depend on the processing

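Under the replicate block 1273 genes were called (563 higher and 710 lower of 13082), 6 of them guidance genes (5 higher and 1 lower), with 9 partners. The labels state no pairing by replicate number. Deviations of same-numbered libraries correlated at 0.071, 0.2 and -0.31, and those of unlike numbers at -0.395 to 0.337. With 3 libraries per group these values cannot show whether the samples were paired. The block with the length correction called 1239 genes (513 higher and 726 lower of 13082), 6 guidance genes (3 higher and 3 lower) and 6 partners. Limma on log2(FPKM + 1) without a filter called 8 guidance genes higher and 1 lower (934 and 1069 of all 17655 genes). The length correction called 8 higher and 3 lower (1012 and 1174 of 13082). The length and GC correction, chosen after seeing the data, called 8 higher and 3 lower (1341 and 1744 of 13082). It also called 24 of the 83 tested partners. Of these 24, Arhgap39, Ext1, Ptpn11, Rock1, Siah1b, Src and Trio were lower and the others higher. Leaving out each library gave 665 to 4917 genes, 2 to 13 guidance genes (1 to 11 higher, 1 to 2 lower) and 4 to 29 partners. For the lncRNA-table transcripts the count was 0 without a filter, with the block and without each library, and the other alternatives were not run there. Signs turned only in genes that did not pass. Efna2 was at 0.010 after the length correction and at 0.012 with the block added. Epha7 was at -0.070 in log2(FPKM + 1), with and without a filter, -0.10 in log2(FPKM + 0.1), -0.058 after the length correction, -0.039 with the block added and -0.21 after the length and GC correction. Ntn1 was at -0.15, -0.11 and -0.19 under the last 3, and Neo1 at -0.0079 under the length and GC correction. Over the libraries left out, Efna1 ranged from -0.057 to 0.15, Efna2 from -0.10 to 0.045, Epha7 from -0.11 to 0.24, Epha8 from -0.14 to 0.10, Ephb2 from -0.059 to 0.30, Ntn1 from -0.13 to 0.24 and Robo2 from -0.21 to 0.91. The cause of these shifts was not tested. Depth limits the 11 untested genes and Slit1, Robo2, Robo4 and Epha8, at 26 counts or fewer per library.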
